A study of Homo sapiens with 12 samples.

Results

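The m1A map of control erastin-resistant SNU-668 cells consisted of 3 peak lists with 25039 distinct peaks in 7190 genes, out of 81260 distinct peaks summed over the 6 peak lists of the series. Every peak of the lists from the 3 control immunoprecipitations (IPs), each called against its own input, was a member, with no selection on enrichment. SNU-668 is a human gastric cancer cell line. The control cells had been made resistant to erastin, an inhibitor of the cystine transporter SLC7A11 that triggers ferroptosis, and carried the non-targeting shRNA of the study, shRNA-NC. The other 6 of the 12 libraries came from resistant cells with an shRNA against ALKBH3 and were not used here. Erastin resistance was thus common to all groups, and cells without it were not analysed here. The labels do not say whether the resistant cells were 1 clone or a pool, nor whether the replicates were separate cultures, so the spread between the lists may be technical.

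N1-methyladenosine (m1A) is adenine with a methyl group on the nitrogen that takes part in base pairing. It is placed on tRNAs by TRMT6 and TRMT61A and on mitochondrial RNAs by TRMT10C and TRMT61B, and ALKBH1 and ALKBH3 remove it. Antibody maps of other human cells have put many m1A peaks in 5′ UTRs and near start codons, and maps at single-base resolution have found few sites in mRNA, among them one in the mitochondrial mRNA of MT-ND5. A peak of an antibody map is a stretch of transcript with more reads in the IP than in the input, and it does not show a modified base by itself. With RNA pieces of about 300 nt, the position of a modified base within or beside a peak is blurred.

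Control replicates 1, 2 and 3 had 5015, 4894 and 15130 peaks in 2804, 2939 and 6019 genes, so the third list was the longest. Peaks covered 575146, 650690 and 2158789 nt. Median width was 50, 75 and 75 nt, in steps of 25 nt for more than 97% of the peaks of each list, and 35.4%, 28.2% and 28.2% of the peaks had the smallest width of 25 nt. Enrichment was the log2 fold change that the authors deposited for each peak, with medians of 1.58, 2.25 and 2.07 and maxima of 5.63, 9.99 and 13.2. Read counts are not part of the lists, and the depth behind a peak, a list or the difference in list length is unknown.

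Lists 2 and 3 held more peaks of very high enrichment than list 1, among them globin and epithelial peaks that list 1 lacked. Results are therefore also given with each list left out. A log2 enrichment of at least 5, or 32-fold, was reached by 132 peaks of list 2 (2.70%) and 208 peaks of list 3 (1.37%), against 2 peaks of list 1 (0.0399%), both in KRT8. Those of lists 2 and 3 lay in 113 and 175 genes, also outside these groups, such as SSR3 with 7.52 and 9.76. In list 2, 22 of the 132 peaks shared a base with any other list, and in list 3, 31 of the 208. Of all peaks of lists 2 and 3, 39.1% and 15.8% did. The genes for α-globin, the oxygen carrier of red blood cells, led list 2, with 9.99 for HBA2 and 9.65 for HBA1, and had 12.7 and 12.2 in list 3. HBB, the β-globin gene, had the highest value of all, 13.2, in list 3 and no peak in the other lists. HBA1 and HBA2 are near-identical copies, so their split is uncertain.

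Of 12 erythroid genes, a group chosen after these values were seen, 0, 2 and 4 had a peak in lists 1, 2 and 3. HBE1 was the fourth in list 3, with 2.75, and ALAS2, SLC4A1 and AHSP were among the 8 with no peak. In a group of 6 genes, the simple epithelial keratins and EPCAM, 2, 5 and 5 had a peak in lists 1, 2 and 3. KRT20 had none in any list. KRT19 had 9.22 and 6.86 in lists 2 and 3 and KRT7 4.79 and 6.86, with no peak in list 1. EPCAM, an epithelial adhesion molecule, had 8.68 and 5.34, and FOLR1, a folate receptor, 5.26 and 10.0, again with no peak in list 1. ERVW-1, the envelope gene syncytin-1 known from the placenta, had 6 peaks in list 2, with a maximum of 7.28, and none in lists 1 and 3. KRT8 and KRT18, the keratin pair of simple epithelia, had a peak in every list, KRT8 with 5.63, 6.32 and 5.53 and KRT18 with 1.13, 2.48 and 1.86.

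Those 2 keratins, KRT19 and EPCAM were the 4 of 15 epithelial and gastric markers with a peak, and the other 11, among them the gastric genes CLDN18, TFF1, TFF2, MUC5AC and GKN1, had none. Among markers of other cells, 1 of 10 leukocyte genes (CD68), 2 of 6 fibroblast genes (COL1A2 in all lists, COL1A1 in lists 2 and 3) and 0 of 4 endothelial genes had a peak. A gene without a peak may still be expressed, and enrichment, a ratio of IP to input, is no measure of the level of a transcript. In bulk RNA few cells rich in a transcript and many cells poor in it cannot be told apart either. Globins and syncytin-1 are not known as markers of gastric cells, and whether every library came from SNU-668 cells alone, as labelled, cannot be told from the lists. The part of the globin and epithelial peaks in the results below was not tested beyond leaving genes or lists out. Without the 269 genes that reached a log2 enrichment of 5 in any list, 1148 genes in place of 1171 (16.3% of all genes with a peak) were found in all lists.

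**Figure D1:**
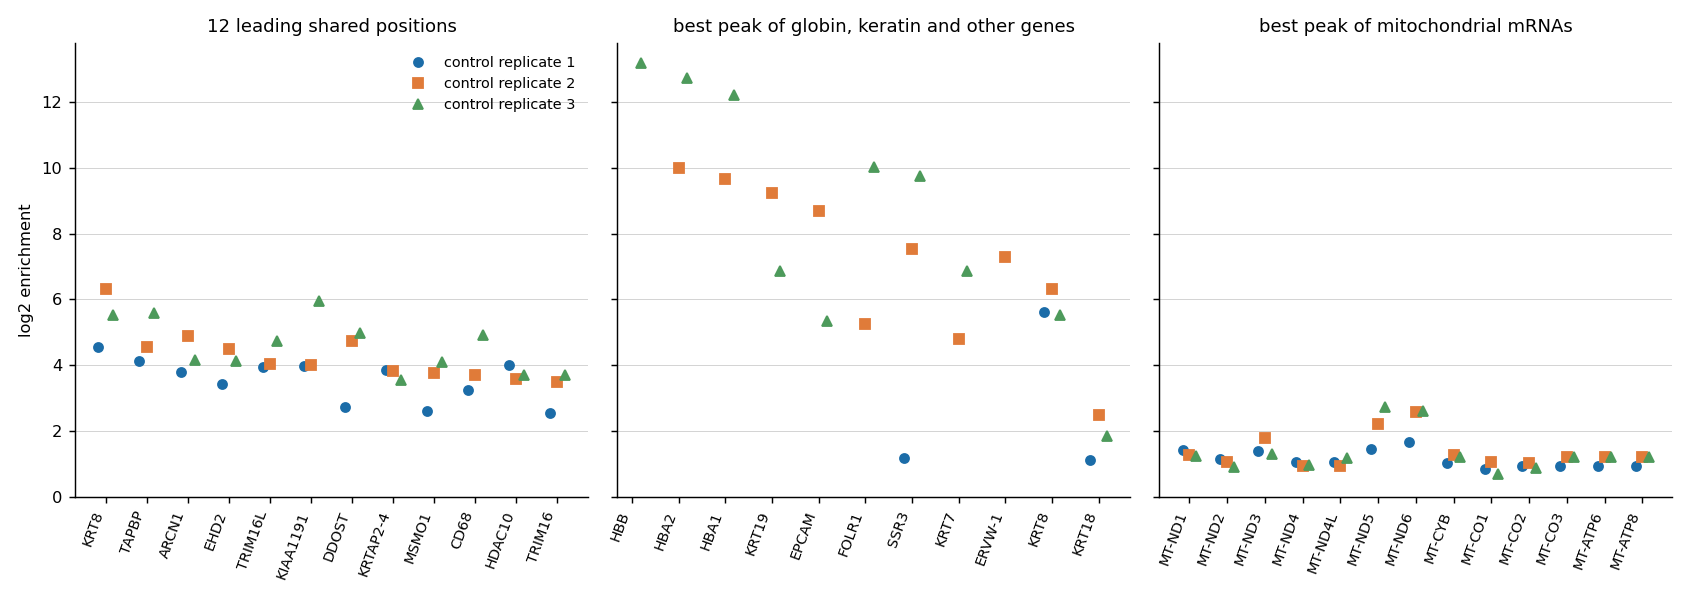
Log2 enrichment in each control list (vertical axis, points by replicate) at the 12 leading shared positions, for the best peak of globin, keratin and other genes, and for the best peak of each mitochondrially encoded mRNA; a missing point is a gene without a peak. HBA2 has 9.99 and 12.7 in lists 2 and 3 and no point for list 1, while MT-ND5 and MT-ND6 stand above the other mitochondrial mRNAs in each list.

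A peak in all 3 control lists was found for 1171 of the 7190 genes (16.3%). A further 2230 genes had a peak in 2 lists and 3789 in 1 list. The recurrent genes made up 41.8%, 39.8% and 19.5% of the genes of lists 1, 2 and 3. Lists 1 and 2 shared 1330 genes (47.4% and 45.3% of each), lists 1 and 3 shared 2174 (77.5% and 36.1%) and lists 2 and 3 shared 2239 (76.2% and 37.2%). When lists 1 and 3 were cut to the length of the shortest, 4894 peaks, by keeping their most enriched ones, 394 genes were in all lists.

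Recurrence was next described by position, which can be shared only within the recurrent genes. At least 1 base covered by a peak of every list was found for 452 genes, which is 38.6% of the 1171 recurrent genes and 6.29% of all genes with a peak. The other 719 recurrent genes had no base covered in all lists, though peaks of 2 lists could overlap or lie side by side there. The covered bases formed 723 ranges on one strand, 99805 nt in all, with a median of 75 nt and 240 ranges of at most 25 nt. They took up 17.4%, 15.3% and 4.62% of the bases covered in lists 1, 2 and 3. With list 1, 2 or 3 left out, the other lists shared 2115, 1789 and 962 ranges, and 52.3%, 46.6% and 45.9% of their common genes had a shared base. With a reciprocal overlap of at least 50% between all lists, 165 ranges remained, and peaks with identical limits in all lists numbered 16 of 24769 distinct limits.

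Of those 16 peaks, ribosomal protein mRNAs gave 7 (among them RPS13, RPS21, RPL17, RPL18, RPL31 and RPL35A) and mitochondrial mRNAs 2 (MT-ND1 and MT-ND6). The others were FTH1, PCBP2, PRDX5, S100A11, IL6ST, CKAP5 and MRPL18. CKAP5, a microtubule polymerase, had the same 25 nt of its 3′ UTR in each list (chromosome 11, 46765098 to 46765122, minus strand, hg19), with log2 enrichments of 3.65, 3.36 and 3.14. MRPL18, a mitochondrial ribosomal protein, likewise had 25 nt of 3′ UTR (chromosome 6, 160219444 to 160219468, plus strand), with 3.62, 2.86 and 3.88. Of the 16, these 2 alone had a log2 enrichment above 2.61, the value of MT-ND6 in list 3.

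Strong peaks recurred less often than weak ones. A peak was counted as recurrent where it shared at least 1 base with each other list, not necessarily the same base. Of the 10% of peaks with the highest enrichment, 8.17%, 1.84% and 1.26% in lists 1, 2 and 3 recurred in this way. Of the 10% with the lowest enrichment, 26.1%, 35.8% and 12.8% did. The same order was seen at gene level, where 34.1%, 18.2% and 11.4% of the strongest peaks and 70.1%, 83.8% and 62.0% of the weakest lay in a gene with a peak in both other lists. The shares did not decline at every step of 10%, since in list 1 the top step, with 8.17%, lay above step 8, with 6.37%.

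Wide peaks recurred more often than narrow ones. Since 1 shared base was enough, a wide peak had more room for a hit, and part of this order is built into the measure. Over 300 nt, 40.9%, 47.8% and 21.4% of the peaks recurred, and at 25 nt 4.90%, 5.72% and 0.774%. Strong peaks also lay in longer transcripts, with medians of 4232, 4261 and 4653 nt for the strongest 10%, against 2200, 1931 and 2520 nt for the weakest. When each list was split at its median enrichment, the stronger peaks recurred less often than the weaker ones in 29 of 30 comparisons, over 10 classes of width, transcript length or region in 3 lists. The exception was 5′ UTR peaks in list 2, with 9 of 36 stronger and 6 of 28 weaker peaks. Within peaks of at most 100 nt, 4.49%, 3.57% and 0.224% of the stronger peaks recurred in both other lists, against 8.11%, 10.6% and 1.71% of the weaker ones. Over 300 nt the shares were 29.4%, 16.1% and 11.9% for the stronger and 45.4%, 61.3% and 26.8% for the weaker peaks. Within transcripts of at least 4000 nt the shares were 4.18%, 2.52% and 0.862% for the stronger and 7.42%, 9.99% and 2.50% for the weaker peaks. Within 3′ UTR peaks they were 6.21%, 3.70% and 1.16% against 10.9%, 16.2% and 6.05%. Each of these is a description of the lists, since peaks are not replicates.

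**Figure D2:**
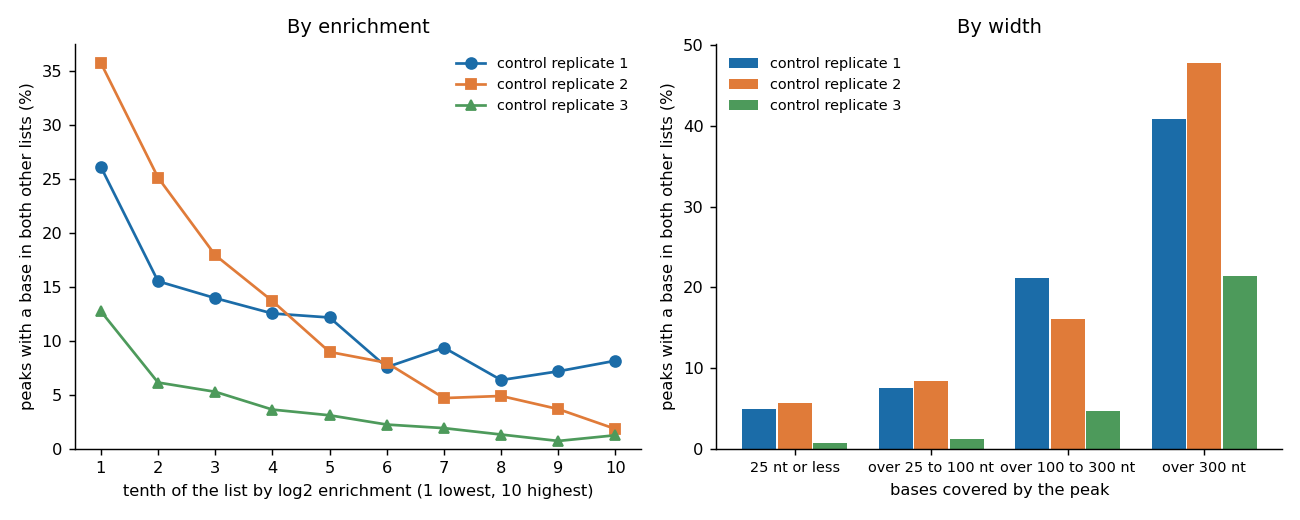
Share of the peaks of each control list that share a base with each other list, not necessarily the same base (vertical axes, percent), by steps of 10% of the list in log2 enrichment (left, lines by replicate) and by bases covered (right, bars by replicate). The lines run from 26.1%, 35.8% and 12.8% at the weakest peaks to 8.17%, 1.84% and 1.26% at the strongest, and the bars are highest for peaks over 300 nt.

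Where positions did recur, their enrichment kept much of its order. Across the 723 shared ranges, Spearman's rho of the log2 enrichment was 0.83 between lists 1 and 2, 0.84 between lists 1 and 3 and 0.83 between lists 2 and 3. For the best peaks of the 1171 genes it was 0.63, 0.63 and 0.68. Several ranges can share 1 wide peak, and the 3 values of a range come from lists of unequal length, so these are descriptions without a test. The shared ranges stood low in their lists, with a median percentile of enrichment of 30.7, 18.9 and 18.7. Only 12 of the 723 were at or above the 90th percentile in every list.

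The 12 genes with the highest enrichment at a shared position were KRT8, TAPBP, ARCN1, EHD2, TRIM16L, KIAA1191, DDOST, KRTAP2-4, MSMO1, CD68, HDAC10 and TRIM16. KRT8 (chromosome 12, minus strand) had 5 shared ranges above the 90th percentile, of which the foremost (53291102 to 53291151) had log2 enrichments of 4.54, 6.32 and 5.53. Its list 2 value belongs to 1 peak that covers 2950 nt, more than the longest KRT8 transcript with a peak (2120 nt), so the precise ranges came from list 1. TAPBP, or tapasin, which helps load peptides onto MHC class I, had 25 shared nt of 3′ UTR (chromosome 6, 33268146 to 33268170, minus strand) with 4.13, 4.54 and 5.58. ARCN1, a subunit of the COPI coat of Golgi vesicles, had 25 shared nt of 3′ UTR (chromosome 11, 118471947 to 118471971, plus strand) with 3.80, 4.89 and 4.16.

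EHD2, a membrane-remodelling ATPase of caveolae, had the longest purely 3′ UTR range of these genes, 175 nt (chromosome 19, 48245695 to 48245869, plus strand), with 3.43, 4.49 and 4.14. KIAA1191 had 25 shared nt of 3′ UTR (chromosome 5, 175774314 to 175774338, minus strand) with 3.99, 4.02 and 5.96. In DDOST, a subunit of the oligosaccharyltransferase that N-glycosylates proteins, list 1 was well below the others, with 2.74 against 4.75 and 4.99 (chromosome 1, 20978558 to 20978582, minus strand). MSMO1, a sterol oxidase of cholesterol synthesis, showed the same order with 2.60, 3.76 and 4.08 (chromosome 4, 166263603 to 166263627, plus strand). List 1 had the lowest value in 10 of these 12 genes, as it had the lowest median of all peaks.

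CD68, a lysosomal glycoprotein, had 25 shared nt of 3′ UTR (chromosome 17, 7485141 to 7485165, plus strand) with 3.24, 3.71 and 4.93. HDAC10, a deacetylase, had 3.99, 3.58 and 3.72 in its 3′ UTR (chromosome 22, 50683762 to 50683786, minus strand), with list 1 the highest. TRIM16, a ubiquitin ligase, and its paralog TRIM16L had shared ranges in the 3′ UTR or across coding sequence and 3′ UTR, with 2.55, 3.49 and 3.70 and with 3.95, 4.03 and 4.73. Their sequences are alike and so are those of the KRTAP2 genes, so reads may be split between copies and these entries are uncertain.

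The 3′ UTR held more distinct peaks than any other region. A peak was assigned to a region only where all its annotated transcripts named that region alone. The 3′ UTR alone took 57.5%, 59.6% and 44.3% of the peaks in lists 1, 2 and 3 (mean 53.8% ± 8.28, SD, n = 3) and the coding sequence alone 25.98%, 25.3% and 37.7% (29.7% ± 6.97). The 5′ UTR alone took 2.21%, 1.31% and 2.80% (2.11% ± 0.750). Peaks that named both 5′ UTR and coding sequence, at the start codon or by different transcripts, were 3.71%, 2.19% and 5.07%. Those that named coding sequence and 3′ UTR were 10.2%, 11.2% and 9.68%. The Wilson 95% intervals of the 3′ UTR shares were 56.1% to 58.8%, 58.2% to 61.0% and 43.5% to 45.1%, covering counting error only, so list 3 differed from the others by more than that error.

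The order of regions depended on how transcripts were counted. With each entry of a peak and transcript counted, the 3′ UTR had 46.4%, 48.1% and 33.2% and the coding sequence 39.7%, 39.1% and 52.7%, so in list 3 the coding sequence came first, and the mean over lists of the 3′ UTR share minus the coding share was -1.25 percentage points, in place of 24.1 with distinct peaks counted. Peaks across exon junctions were 0.139%, 0.206% and 0.253% of 3′ UTR peaks, against 22.7%, 29.5% and 30.4% of coding peaks.

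Enrichment within a list was higher in the 3′ UTR than in the coding sequence in 3 of 3 lists. Median log2 enrichment was 1.64, 2.53 and 2.40 for 3′ UTR peaks and 1.60, 1.95 and 1.85 for coding peaks in lists 1, 2 and 3. The differences were 0.05, 0.58 and 0.55, with a mean of 0.39 ± 0.30 (SD, n = 3; two-sided exact sign-flip test, p = 0.25, the smallest that 3 lists allow). For 5′ UTR peaks, with medians of 1.69, 2.56 and 2.27, the mean difference from coding sequence was 0.37 ± 0.26 (SD, n = 3; two-sided exact sign-flip test, p = 0.25). Between 5′ UTR and 3′ UTR the differences of 0.05, 0.03 and -0.13 had no common sign (two-sided exact sign-flip test over n = 3, p = 1). In list 1 the 3′ UTR difference was the smallest, and it was -0.0037 with every entry counted. Peaks of coding sequence and 3′ UTR had the lowest medians of the 5 region classes plotted, 1.26, 1.67 and 1.81.

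**Figure D3:**
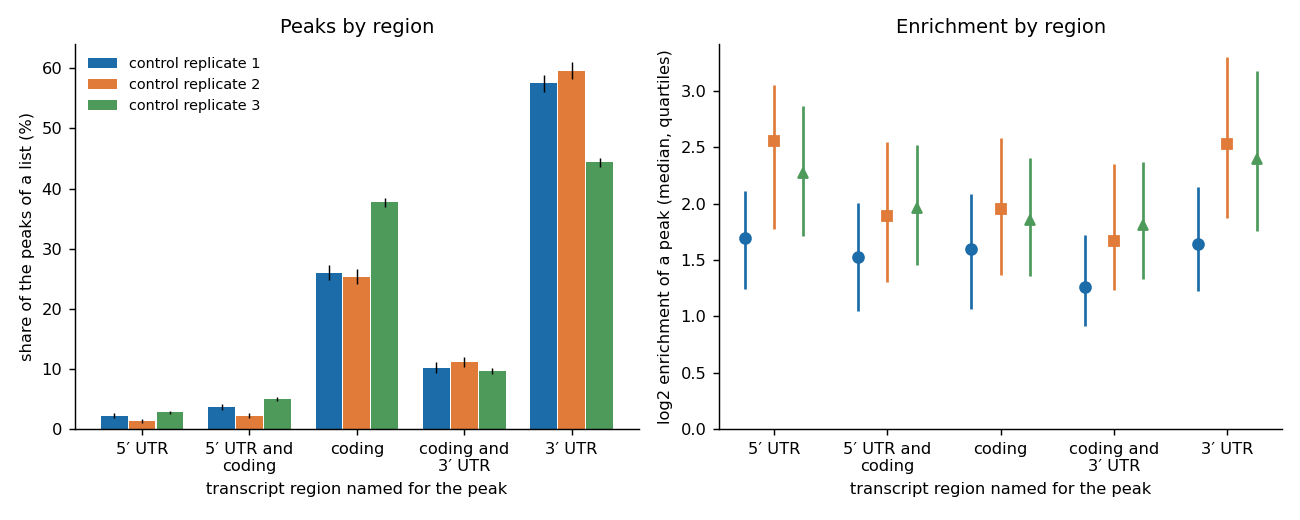
Share of the peaks of each control list by transcript region (left, bars with Wilson 95% intervals) and log2 enrichment of those peaks (right, points are medians and lines quartiles). The 3′ UTR bars stand at 57.5%, 59.6% and 44.3%, and its medians at 1.64, 2.53 and 2.40.

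At shared positions the regions stood in another proportion. Of the 723 ranges, 178 were 3′ UTR in every list (24.6%), 72 coding sequence (9.96%) and 7 5′ UTR (0.968%). A further 231 lay in peaks that named several regions in every list, and 235 in peaks whose region differed between lists. Peaks of several regions are wider, with a median of 150, 175 and 175 nt, and 31.6%, 33.5% and 12.6% of them shared a base with each other list, against 8.43%, 8.67% and 2.98% of 3′ UTR peaks. For whole genes, the best peak fell in the same region class in every list for 536 of the 1171 genes, of which 373 were 3′ UTR, 118 several regions, 41 coding sequence and 4 5′ UTR.

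The 4 leading 5′ UTR positions were in FLJ00418, C6orf62, PCBP2 and PTGES3. PCBP2, a poly(C)-binding RNA-binding protein, had a peak with the same limits in every list (chromosome 12, 53846601 to 53847067, plus strand, 467 nt), with log2 enrichments of 1.54, 1.84 and 2.53. C6orf62 had 25 shared nt (chromosome 6, 24720406 to 24720430, minus strand) with 2.93, 2.62 and 2.72, which differed little between lists. PTGES3, the HSP90 cochaperone p23, had 25 shared nt (chromosome 12, 57081920 to 57081944, minus strand) with 3.01, 2.47 and 1.70, the only one of the 4 with list 1 highest and list 3 lowest. FLJ00418 had 3.33, 2.70 and 3.17 (chromosome 16, 70695595 to 70695619, plus strand). Peaks of MTSS1L lie on the opposite strand there, and how strand was used in the authors' counting is not given, so that entry is uncertain.

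In coding sequence the leading positions included those in PHLDB1, SFPQ and ZFC3H1. SFPQ, a splicing factor of nuclear paraspeckles, had 50 shared nt (chromosome 1, 35658245 to 35658294, minus strand) with 3.07, 2.83 and 3.62. PHLDB1 had 2.61, 3.16 and 2.77 (chromosome 11, 118516241 to 118516265, plus strand). ZFC3H1, which links nuclear RNAs to the exosome, had 2.86, 3.45 and 2.38 (chromosome 12, 72005602 to 72005626, minus strand). None of these 3 reached the 90th percentile in all lists, unlike the leading 3′ UTR positions.

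Whether genes found in all lists had shorter or longer transcripts than those found in fewer depended on the peaks and lists used. By the longest transcript with a peak, the median was 3022 nt (95% interval 2868 to 3229) for the 1171 genes in all lists and 3311 nt (3240 to 3381) for the 6019 genes in 1 or 2 lists. Transcripts under 1000 nt made up 9.14% of the first and 4.49% of the second. Without ribosomal protein and mitochondrially encoded genes both medians were 3312 nt, so the gap in medians rested on those genes. Of the 1086 other genes in all lists, 6.63% were still under 1000 nt. Genes in all lists had the longer transcripts among peaks with a log2 enrichment of at least 2 (4573 and 3619 nt) and at equal list length, where their median was higher by 1093 nt. Without list 1 it was higher by 61.5 nt. By the shortest transcript with a peak, genes in all lists were the shorter ones (843 and 1822 nt). Entries of all lists were pooled for each gene. More entries can only lower the shortest transcript of a gene and raise its longest, so part of such differences may be built into the measure.

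Within the recurrent genes, those with a shared base had the shorter transcripts, a direction that held under all 10 alternatives run on it. Among these, the stricter false discovery rate removed 0 peaks and so could not change it. The 452 genes with a shared base had a median of 1918 nt (1783 to 2123), and the 719 without one 3920 nt (3716 to 4127). Leaving out ribosomal protein and mitochondrial genes, the median with a shared base was 2131 nt (1946 to 2329). By length, 81.3% of the 107 recurrent genes under 1000 nt had a shared base, 63.2% of those from 1000 to under 2000 nt, 35.9% to under 4000 nt, 19.2% to under 6000 nt and 13.4% of the longer ones. The share of genes found in all lists was itself 28.4% in the shortest class, 14.7% in the middle class and 15.8% in the longest. Genes with a shared base also had more peak bases per gene (medians of 319, 300 and 700 nt in lists 1, 2 and 3, against 100, 125 and 275 nt without one) and lower best enrichment (1.43, 1.65 and 1.59 against 1.91, 2.31 and 2.36). More peak bases by themselves leave more room for a shared base.

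**Figure D4:**
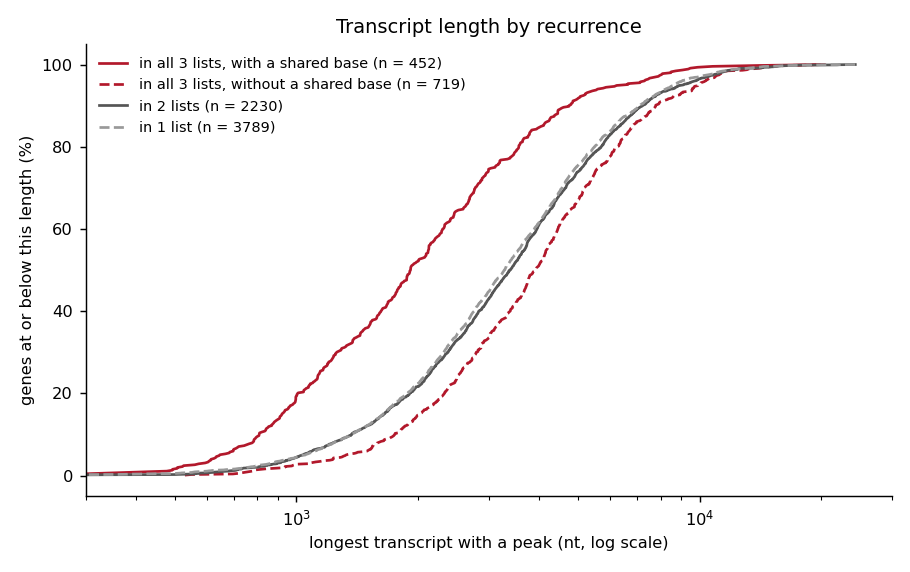
Cumulative share of genes (vertical axis, percent) by the longest transcript with a peak (horizontal axis, nt, log scale), for genes in all 3 control lists with and without a shared base and for genes in 2 lists or 1 list. The curve with a shared base lies left of the others, with a median of 1918 nt against 3920 nt without a shared base.

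Mitochondrially encoded mRNAs, which code for subunits of the respiratory chain and ATP synthase, were in all 3 lists with a shared base for 13 of 13, against 6.29% of all genes with a peak. They came from 10, 14 and 12 peaks. MT-ATP6, MT-ATP8 and MT-CO3 shared 1 peak in every list, and MT-ND4 and MT-ND4L likewise. Other mRNAs held several peaks, with 4 in list 2 and 2 in list 3 for MT-CO1 and 2 in list 2 for MT-ND3. In list 3 MT-ND4L also had a peak of 25 nt of its own. Peak bases summed per gene had a median of 1542, 1041 and 1292 nt, with a shared peak counted for each of its genes. The peaks of MT-ND1 and MT-ND6 had the same limits in every list. Most of the 13 mRNAs had weak peaks, with a median log2 enrichment over genes of 1.06, 1.21 and 1.20.

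MT-ND5 and MT-ND6 stood above the other 11 in every list. MT-ND5, on the plus strand (positions 12412 to 14148 shared), had 1.44, 2.21 and 2.72, at percentiles 41.6, 48.5 and 74.1 of its list. MT-ND6, whose peak on the opposite strand starts at the next base (14149 to 14673), had 1.65, 2.57 and 2.61, at percentiles 53.7, 61.2 and 70.6. The lead was narrow in list 1, where MT-ND1 had 1.43 and MT-ND3 1.41. In list 3 the next gene was MT-ND3 with 1.30. MT-CO1 was the lowest in lists 1 and 3, with 0.86 and 0.69. The peak over MT-ND5 covered nearly its whole mRNA, so the lists place no site within it.

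Most cytosolic ribosomal protein mRNAs were in all lists as well. All 3 lists had 44 of 47 large-subunit genes (40 with a shared base) and 28 of 32 small-subunit genes (28 with a shared base), where 16.3% of all genes with a peak were in all lists and 6.29% had a shared base. RPL38 had no peak, and RPL10A, RPL22, RPS6, RPS7, RPS10 and RPS29 had one in 2 lists. Their best peaks were weak, with medians over large-subunit genes of 0.79, 1.07 and 0.89, at percentiles 8.97, 8.90 and 5.02, and over small-subunit genes of 0.91, 1.11 and 0.97, at percentiles 13.8, 9.69 and 6.63. RPL17 stood highest among large-subunit genes by its lowest percentile, with 1.48, 2.15 and 1.97 across coding sequence and 3′ UTR (chromosome 18, 47014851 to 47014936, minus strand). RPS3, the leading small-subunit gene, had 0.88, 1.86 and 1.45. RPS16 had a shared range of 2100 nt, more than the 643 nt of its longest transcript with a peak, so some deposited blocks hold more than spliced exons. Processed pseudogenes share the sequences of these genes, which makes their values uncertain. With the mitochondrial mRNAs, ribosomal protein genes made up 7.26% of the recurrent genes and 17.9% of those with a shared base.

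Other housekeeping groups also had shares above the 16.3% of all genes with a peak, from 44.1% to 70.8% of their members with a peak in the 6 groups described first. Here and in the groups below, values given for a gene without a position are those of its best peak in each list. Best peaks of different lists need not overlap. Actins, tubulins and associated cytoskeletal genes were in all lists for 17 of 25. VIM, the mesenchymal intermediate filament vimentin, had 1.86, 1.85 and 2.30. Its best peak named 5′ UTR and coding sequence in lists 1 and 2, but the 3′ UTR in list 3. Splicing proteins of the hnRNP and SR families were in all lists for 20 of 34. HNRNPC, a nuclear RNA-binding protein, had 2.83, 3.82 and 2.85, always in the 3′ UTR, and PTBP1, a repressor of splicing, had 2.55, 2.68 and 2.59. Glycolysis had 10 of 19, with PFKL, a phosphofructokinase, at 1.95, 1.92 and 1.77. Its member PKM, pyruvate kinase, had the largest number of shared nt of any gene, 2525 in 5 ranges, at log2 enrichments of at most 1.05.

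Heat shock proteins and chaperonins were in all lists for 17 of 33 and translation factors for 18 of 40. EIF2S3, a subunit of the initiation factor that brings the first tRNA, had 2.97, 3.20 and 2.73, above the 74th percentile in each list, while EEF1B2 had 1.45, 2.04 and 1.68. Nuclear genes of oxidative phosphorylation had 15 of 39, with ATP5D, a subunit of ATP synthase, at 1.53, 2.19 and 2.84. The best ATP5D peak lay in the 3′ UTR in list 1, in coding sequence and 3′ UTR in list 2 and in coding sequence in list 3. Proteasome subunits had 5 of 31, or 16.7% of the 30 with a peak, near the share of all genes. Of these, PSMA4 had 1.40, 1.71 and 1.37, and 18 further subunits were in 2 lists. Cytosolic aminoacyl-tRNA synthetases had 2 of 20 (10.5% of the 19 with a peak), NARS and WARS, and neither had a shared base.

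Zinc finger and mitotic gene groups had shares in all lists near the 16.3% of all genes with a peak. Of 47 ZNF genes, 4 were in all lists (16.7% of the 24 with a peak) and 23 in none. Their median best enrichments were 2.18, 3.24 and 3.56, at percentiles 78.4, 80.1 and 90.03, where the best peaks of all genes of a list had medians at 64.1, 60.6 and 68.9. ZNF146 was the only one with a shared base, at 1.91, 2.19 and 2.75 in its 3′ UTR. Of 29 centrosome and spindle genes, 3 were in all lists (CENPE, KIF11 and TOP2A), of 23 with a peak, none with a shared base, with median percentiles of 66.4, 61.7 and 78.2. Replication-dependent histones had 1 of 12, of which 5 had a peak. The members with a peak in these first 2 groups had median transcripts of 5682 and 5758 nt, against 3278 nt for all genes with a peak.

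Ferroptosis suppressors, the genes that hold back lipid peroxidation, were in all lists for 9 of 28 members (SLC3A2, GPX4, FTH1, FTL, SCD, NQO1, HSPB1, TXNRD1 and TXN), and 5 of these had a shared base. Of the 25 members with a peak these were 36.0% and 20.0%, against 16.3% and 6.29% of all genes with a peak. GPX4, which reduces lipid peroxides, had a peak that ended at the same base in each list (chromosome 19, position 1106787, plus strand), with log2 enrichments of 1.26, 1.64 and 1.52. FTH1, the heavy chain of the iron store ferritin, shared a 5′ UTR peak of 175 nt with identical limits (chromosome 11, 61734461 to 61734635, minus strand), with 0.61, 0.62 and 1.75. Its best peaks had 1.84, 2.06 and 2.38, but in list 2 that peak lay in the 3′ UTR. HSPB1, a small heat shock protein, had 1.22, 1.27 and 1.29. Its best peaks in lists 1 and 3 covered 1450 and 1425 nt, more than its longest transcript with a peak (909 nt). TXN, thioredoxin, had 1.07, 0.80 and 0.87, always reaching into its 3′ UTR.

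NQO1, a quinone reductase, had 2.84, 2.93 and 3.31 in its 3′ UTR (chromosome 16, minus strand). Its best peak in list 3 (69743892 to 69744216) contained those of list 1 (69744092 to 69744141) and list 2 (69743892 to 69744066), which did not overlap each other, and no base was covered in all lists. SLC7A11, the cystine transporter that erastin blocks, had 4 peaks in list 1 and 2 in list 3, best values of 2.40 and 2.31, none at the same place, and no peak in list 2. NFE2L2, which drives antioxidant genes, and AIFM2, a quinone reductase of the plasma membrane, had a peak in list 3 alone, with 2.16 and 2.58.

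Ferroptosis drivers were in all lists for 3 of 24 members, TFRC, HMGB1 and IREB2, none with a shared base. This was 16.7% of the 18 with a peak, near the 16.3% of all genes. TFRC, the transferrin receptor, had 1.29, 1.97 and 1.17, in the 3′ UTR in lists 1 and 2 and in a peak named for coding sequence and 3′ UTR in list 3. IREB2, an iron-regulatory RNA-binding protein, had 3.16, 2.79 and 3.71, and the 3′ UTR peaks of lists 1 and 3 (chromosome 15, 78793453 to 78793577 and 78793603 to 78793727, plus strand) lay close together. ACSL4, which feeds polyunsaturated lipids into membranes, had 1.56 in list 1 and 2.95 in list 3, in different parts of the 3′ UTR, and no peak in list 2. Glutathione and NRF2 target genes were in all lists for 10 of 29 (43.5% of the 23 with a peak), with GPX1, a glutathione peroxidase, at 1.89, 1.57 and 1.87. Sterol and fatty acid synthesis had 6 of 32 (23.1% of the 26 with a peak), none with a shared base.

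Of 12 enzymes and readers of m1A, 1 was in all lists, YTHDF3, a YTH domain reader, with 2.25, 3.07 and 3.20 in its 3′ UTR and no shared base. That is 12.5% of the 8 members with a peak, where all genes with a peak had 16.3%. ALKBH3, ALKBH1, FTO and TRMT61A had no peak in any control list. TRMT61B, a mitochondrial m1A methyltransferase, had 2.61 in coding sequence in list 1 and 3.74 in the 3′ UTR in list 2. TRMT6 had a peak in list 1 (1.72) and TRMT10C in list 3 (2.28). The m6A machinery had 6 of 18 in all lists (40.0% of the 15 with a peak), of which HNRNPC and HNRNPA2B1 had a shared base. HNRNPA2B1, a reader of m6A, differed widely between lists, with 0.73, 2.19 and 3.85.

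Genes of the ATF4 and unfolded protein response were in all lists for 7 of 22 members, or 41.2% of the 17 with a peak, against 16.3% of all genes with a peak. SLC7A5, a leucine transporter, had 1.80, 2.49 and 2.47 and was the only one with a shared base. ATF4, the transcription factor of the amino acid response, had nearly equal best values of 1.08, 1.13 and 1.12, but in the 5′ UTR in list 1, in coding sequence and 3′ UTR in list 2 and in coding sequence in list 3. EIF2AK2, the kinase PKR, had 3.10, 4.90 and 4.71 in its 3′ UTR, where the peaks of lists 2 and 3 overlapped (chromosome 2, 37333853 to 37334077 and 37333803 to 37334127, minus strand) and that of list 1 lay apart (37328678 to 37328702).

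**Figure D5:**
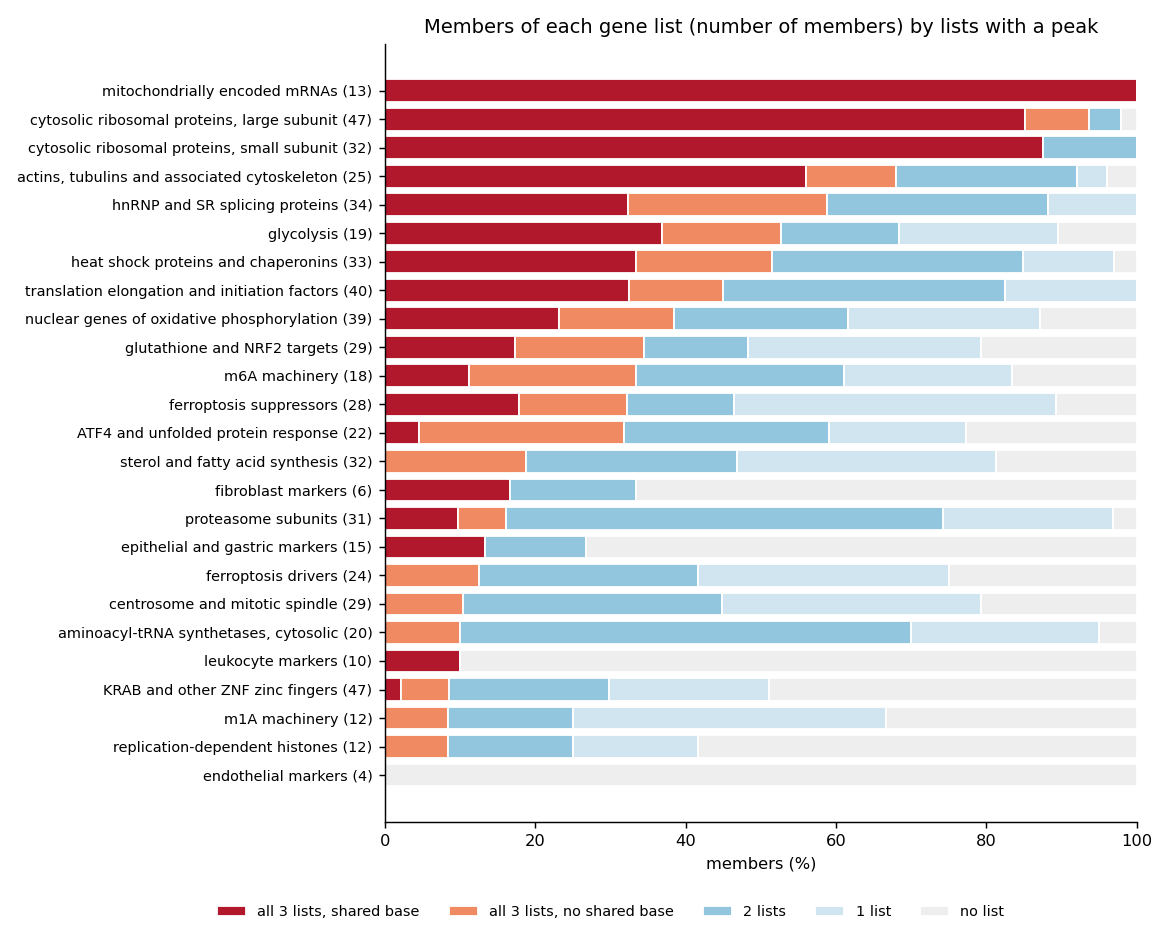
Members of each gene group (rows, number of members in parentheses) by the number of control lists with a peak, in percent of members (horizontal axis), with members in all 3 lists split by a shared base. Mitochondrially encoded mRNAs fill the row (13 of 13) and ribosomal proteins nearly so (44 of 47 and 28 of 32), while 4 of 47 ZNF genes and 1 of 12 genes of the m1A machinery were in all lists, of 24 and 8 with a peak.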

How the data were processed

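Per the labels' protocols, mRNA of control and knockdown SNU-668 cells was cut to about 300 nt, pulled down with an anti-m1A antibody and sequenced from stranded libraries with 150 nt reads. HISAT2 2.1.0, Trimmomatic 0.32, FastQC 0.11.7 and the hg19 build are named in the submitters' processing notes, which give no roles, and no source used here names the peak caller. Peaks were called by the authors in each IP sample, with 1 entry per transcript. The deposited log2 fold change, p-value and false discovery rate are the authors' own for each peak, per the file headers, and every p-value lies below 1e-10. Log2 values were read as IP over input, since all are positive, and used only to describe and rank peaks within a list. The deposited transcript length is in nt.

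Entries with the same chromosome, start and end counted as 1 peak, and genes were taken by the deposited name. Of 7190 names, 6634 (92.3%) matched a current symbol. Overlaps used exon blocks on the same strand. Starts were shifted to count from 1. The analysis used Python 3.11.15, pandas 2.3.3, numpy 2.4.6 and SciPy 1.17.1, and overlap counts were tested on simulated data. Shares have Wilson 95% intervals and medians order-statistic intervals, and the only test is an exact sign-flip over 3 lists. Members and lists were chosen with earlier results of these data known. Named are the 12 genes, and 4 per region, whose lowest percentile of enrichment at a shared range was highest, the 10 narrowest shared ranges from the 90th percentile, up to 4 members per gene group by the same ranking, all mitochondrial mRNAs, and SLC7A11, GPX4, ACSL4, TFRC, FTH1, AIFM2, NFE2L2 and ALKBH3. Others were named after their values were seen. A few genes that the rule names are not reported here. The alternatives were a log2 enrichment of at least 2, a stricter false discovery rate (-log10 value from 5), lists of equal length, each list left out, autosomes and X alone, and other rules for overlap, region and length. The 3 knockdown lists were only counted.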

Additional observations from a re-analysis of the deposited data

How the results depend on the processing

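No paired analysis was possible because only 1 group was described and no groups were compared. Of 130 alternative values, 87 stayed within 1.5 times (counts), kept the sign of a difference in enrichment, or stayed within the spread of the lists or the 95% interval, 39 moved further and 4 reversed a direction. The stricter false discovery rate (-log10 value from 5) removed 0 peaks, and no exon blocks of a list overlapped, so merging changed nothing.

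The counts moved with the stringency. With a log2 enrichment of at least 2, 315 genes were in all lists, 93 positions were shared, 22.2% of the genes had a shared base, the 3′ UTR took 62.3% and several regions 9.83% of the peaks, and median lengths were 4573 nt in all lists and 3619 nt in fewer. At equal list length the values were 394 genes, 77 positions, 12.9%, 12.6% for several regions and 4436 nt in all lists. Leaving out each list gave 1330 to 2239 genes, 962 to 2115 positions, 45.9% to 52.3% with a shared base and 3051 to 3351 nt. The counts were 2239 and 2115 without control replicate 1 and 2174 and 1789 without control replicate 2. Reciprocal overlap gave 165 positions and 11.02%. Every entry counted gave 42.6% 3′ UTR, 43.8% coding sequence and 10.8% several regions. By the shortest transcript the medians were 843 and 1822 nt, and by the median over transcripts 1824 and 2572 nt. Without ribosomal protein and mitochondrial genes, added after seeing the data, 33.9% had a shared base and the median in all lists was 3312 nt. The reversals were the length of genes in all lists minus that in fewer, -289 nt as reported, against 954 nt with a log2 enrichment of at least 2, 1093 nt at equal list length and 61.5 nt without control replicate 1 (-233 nt to 61.5 nt over the lists left out), and the 3′ UTR minus the coding share, -1.25 percentage points with every entry counted. That length difference was -979 nt by the shortest transcript, -748 nt by the median over transcripts and 0 nt without ribosomal protein and mitochondrial genes. Between recurrent genes with and without a shared base, -2003 nt as reported, it was -1558 nt with a log2 enrichment of at least 2, -1487 nt at equal list length, -1848.5 to -1444 nt with a list left out, -652.5 nt by the shortest transcript and -1388 nt by the median. The cause of these moves was not tested, except that fewer lists or peaks change the counts by construction. Unknown depth limits every statement on absent peaks.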
